A study of Aquilegia coerulea with 32 samples.

Results

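The question put to the expression data of early *Aquilegia coerulea* flowers was whether stage 2 (s2) lay midway between the stages before and after it, or held genes above or below both. The 8 libraries of s2 were contrasted with the average of the 8 libraries of stage 1 (s1) and the 8 of stage 3 (s3). These are 24 of the 32 libraries of the series, and the 8 libraries of stage 4 (s4) helped to estimate the spread. Every gene with more than 1 CPM (its count scaled by library size) in at least 1 library was taken, which gave 20477 of 30023 transcripts.

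All libraries came from dissected axillary flowers of the wild-type cultivar 'Kiragami'. All plants had been through several weeks of cold (vernalization) as young plants and were then returned to warmer growth conditions, and the buds of every stage had lost 3 of their sepals at dissection. At s1 the floral meristem was a round dome on which stamens were still initiating. The s2 buds were taken between the last staminodes and the first carpels. At s3 carpel primordia had raised rims around an apex that was not used up, and at s4 the apex had gone into the carpels. A library of s1, s2 or s3 pooled 2 buds from 2 individuals, whereas a library of s4 held 1 bud. The study had fewer plants than these libraries hold buds, so that plants were shared between libraries. Which libraries share plants is not recorded. Library totals ran from 22918814 to 28035198 estimated counts at s2 and from 21502034 to 29471104 at s1 and s3, and no pair of libraries was identical.

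In flowering plants a floral meristem first produces organs and then stops. KNOX homeobox genes of the *SHOOT MERISTEMLESS* (*STM*) type and *WUSCHEL* (*WUS*) keep meristem cells undifferentiated, boundary genes such as *CUP SHAPED COTYLEDON* set primordia apart, and *YABBY* genes such as *CRABS CLAW* (*CRC*) act in the organs that form. The libraries held these markers. The WUS homolog *Aqcoe2G057900* had a median of 22.6 at s1, 9.24 at s2 and 7.46 at s3 (n = 8 each) in TPM, a unit that scales each library to one common total after correcting for transcript length, and *AqSTM1* had means of 142 ± 24.1, 89.3 ± 12.9 and 61.6 ± 11.3 TPM (SD).

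For nearly all genes s2 could not be told from the midpoint. Of 20477 genes, 3 (0.0147%) were called off the midpoint by edgeR's quasi-likelihood test at a Benjamini-Hochberg adjusted p under 0.05. Of the 3, 2 lay above the midpoint (0.00977%) and 1 below (0.00488%). The genes above were *AqKXL3*, a KNOX gene, and *Aqcoe5G367500*, annotated as an HSP20-like chaperone gene. The gene below was *Aqcoe7G088100*, which the study does not annotate. An unadjusted p under 0.05 was reached by 564 genes (2.75%), 327 above (1.6%) and 237 below (1.16%). That share is below the 0.05 that evenly spread p-values would give. A contrast of at least 1 on the log2 scale was called in 1 gene above the midpoint (0.00488%) and 0 below (0%). At an unadjusted p under 0.05, 68 genes lay at least 1 above (0.332%) and 40 at least 1 below (0.195%), and DESeq2 called 3 of the latter.

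The same libraries separated the stages from each other in more genes. Between s1 and s2, 227 genes (1.11%) reached an adjusted p under 0.05 in edgeR, between s2 and s3 129 (0.63%), and between s1 and s3 1630 (7.96%). One stage later, s3 was off the midpoint of s2 and s4 in 7 genes (0.0342%), with 864 (4.22%) at an unadjusted p under 0.05. That count rested on the model more than the count at s2, since it became 22 with DESeq2 and 314 when the main axis of variation left within stages, 38.7% of the residual variance, was added as a covariate (the residual component). The corresponding counts at s2 were 9 and 6. The share at an unadjusted p under 0.05 also moved at s2, to 3.04% with DESeq2 and 5.42% (1110 genes) with the residual component. RNA from whole buds cannot tell fewer cells of a kind from less RNA per cell, and this holds for every level given here.

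**Figure D1:**
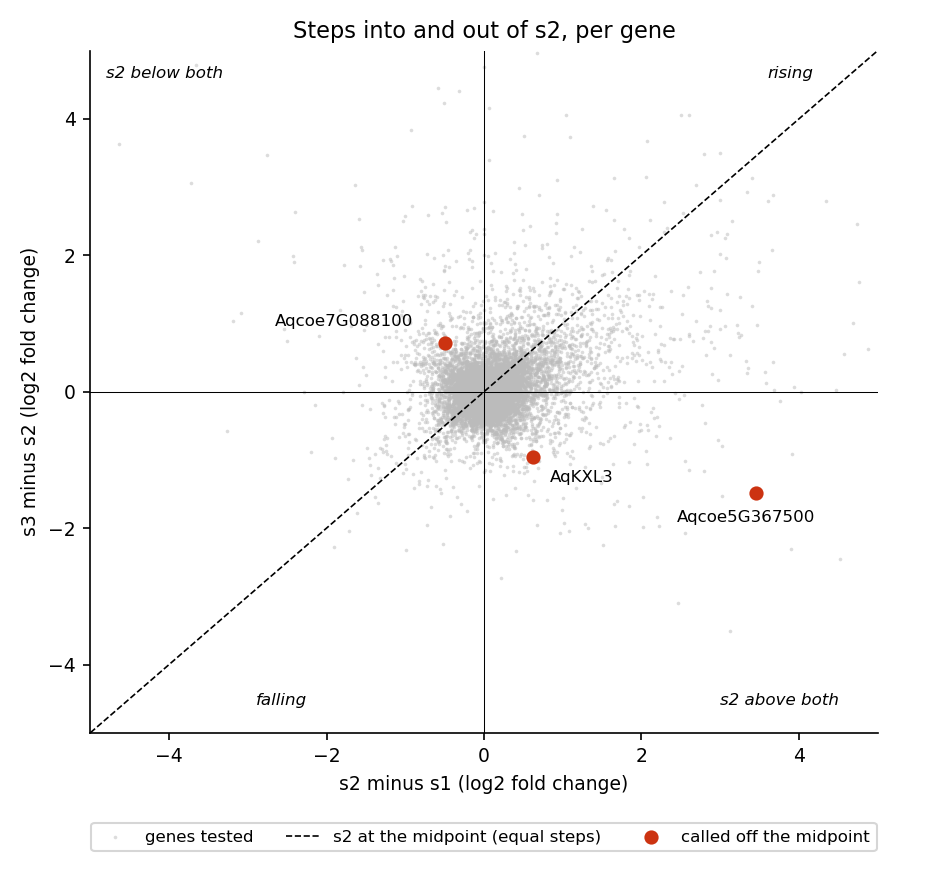
Each point is a gene, with its log2 fold change from s1 to s2 on the horizontal axis and from s2 to s3 on the vertical axis. Genes on the dashed line had equal steps, so that s2 sat at the midpoint, and the 3 called genes, in red, lie in the 2 quadrants where s2 is above or below both neighbours. The plot shows 20467 genes, and 10 with a step of more than 5 lie outside it.

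A gene off the midpoint may still lie between its neighbours, so a second test asked whether s2 was above both or below both. The larger of the 2 one-sided p-values of edgeR, for s2 against s1 and for s2 against s3, was adjusted over all genes. By this rule 0 genes (0%) were called above both and 0 (0%) below both. At an unadjusted p under 0.05, edgeR gave 90 genes above both (0.44%) and 94 below (0.459%), and DESeq2, limma-voom and limma on log2 CPM also called 0. The counts of called genes stayed at 0 in each of 10 alternative analyses and in each of 24 that left out 1 library.

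A less strict count, chosen after the data had been seen, took genes that were called separately in s1 against s2 and in s2 against s3. It found 38 genes. Of these, 18 rose in both steps (0.0879%), 17 fell in both (0.083%), 1 peaked at s2 (0.00488%) and 2 had their lowest level there (0.00977%). The peaking gene was *AqKXL3*, and the low ones were *Aqcoe7G088100* and *Aqcoe2G141600*. *AqKXL3* met this rule in 9 of 10 alternatives and in 12 of the 24 analyses that left out 1 library, and *Aqcoe7G088100* in 10 and 16. No gene had all 8 libraries of s2 above, or all 8 below, the 16 libraries of s1 and s3 by CPM. The closest were *Aqcoe7G088100*, with 7 of 8 libraries below every neighbour, *Aqcoe5G448600* with 6 of 8 below, and *AqKXL3* and 2 more genes with 6 of 8 above.

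*AqKXL3* (*Aqcoe7G052800*) encodes a homeobox protein annotated by its match to KNAT7 of *Arabidopsis thaliana*, a KNOX protein known there from the control of secondary cell walls. KNAT7 is of class II in *A. thaliana*, whereas the study profiled *AqKXL3* among its class I KNOX genes. Which class it belongs to was not tested. The study had already described *AqKXL3*, from these same libraries, as appearing highest at s2. Its TPM ran from 34.1 through a median of 47.9 to 66.3 at s1, from 49.9 through 75.7 to 84.5 at s2, and from 23.9 through 36.5 to 50.9 at s3. At s2, 6 of 8 libraries exceeded every library of s1 and s3, replicate 5 at 59.3 exceeded every s3 library but not the highest s1 library, and replicate 4 at 49.9 lay within the range of both. The fitted level at s2 was 0.62 above s1 on the log2 scale (edgeR adjusted p 0.039), and it fell by 0.96 to s3 (edgeR adjusted p 0.00078).

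Against the midpoint, s2 was 0.79 higher for *AqKXL3* (SE 0.13, 95% interval 0.52 to 1.06, edgeR adjusted p 0.019), which is a 1.73-fold difference. The level went on falling to 14.1 ± 3.13 TPM at s4 (SD, n = 8). The call was made in 10 of 10 alternatives, with a contrast between 0.78 and 0.81, and in 22 of the 24 analyses that left out 1 library. It was lost without s2 replicate 1 (contrast 0.77, edgeR adjusted p 0.062) and without s2 replicate 2 (0.74, adjusted p 0.051).

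The other KNOX genes of the homeobox list, *AqSTM1*, *AqSTM2*, *AqKXL2* and *Aqcoe2G274900*, annotated as KNAT6, were not called, and each had fitted levels that fell in both steps. They are of class I or match class I genes of *A. thaliana*, which act in meristems. *AqSTM2* ran from 27.9 to 52.8 TPM at s1 (median 40.1), from 17.3 to 26.6 at s2 (median 19.9) and from 10.3 to 17.9 at s3 (median 12.3). Its 8 libraries of s2 lay below every library of s1, and 7 of them above every library of s3. The midpoint contrasts of these 4 genes ran from -0.17 for *AqSTM2* through -0.06 for *AqSTM1* and -0.05 for *AqKXL2* to 0.12 for *Aqcoe2G274900*. Whether *AqKXL3* differed from these genes was not tested.

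*Aqcoe5G367500* is annotated to the HSP20-like chaperone superfamily, which includes the small heat shock proteins that hold unfolding proteins in solution. Whether it is one of these was not tested. Its level was low throughout. TPM ran from 0 (2 libraries) through a median of 0.228 to 0.768 at s1, from 1.66 through 2.96 to 6.00 at s2, and from 0.686 through 0.812 to 2.66 at s3. All 8 libraries of s2 exceeded every library of s1, and 4 exceeded every library of s3, so that the ranges of s2 and s3 overlapped. The levels rested on 28 to 125 estimated counts per library at s2, on 0 to 15 at s1 and on 13 to 57 at s3.

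The contrast of *Aqcoe5G367500* against the midpoint was 2.47 (SE 0.46, 95% interval 1.53 to 3.41, edgeR adjusted p 0.023). From s1 to s2 the gene rose by 3.46 (edgeR adjusted p 0.001), while the step to s3, -1.48, was not called (edgeR adjusted p 0.32). It was called off the midpoint in 9 of 10 alternatives and in 12 of the 24 analyses that left out 1 library. The call was lost, with adjusted p between 0.051 and 0.13, without s1 replicate 2 or 5, s2 replicate 1, 2, 3, 4 or 5, or s3 replicate 1, 2, 4, 5 or 8. Over those 24 analyses the contrast lay between 2.31 and 2.64. With the replicate number as a block, it was 2.49 (edgeR adjusted p 0.08). At s4 the level was back at 0.263 ± 0.226 TPM (SD, n = 8).

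Over the 19 genes listed as small heat shock proteins, the median contrast was -0.40, beside 0.01 over all genes tested, with 5 genes above the midpoint and 14 below. Apart from *Aqcoe5G367500* 0 were called, and 7 had an unadjusted p under 0.05 with s2 below the midpoint, beside 1.16% of all genes tested. The list was drawn from the study's results on these samples, so that this share is not independent evidence. Whether *Aqcoe5G367500* differed from the other members was not tested. Fitted levels rose in both steps in 12 of the 19. Their summed level went from 332 ± 83.9 TPM in s1 libraries to 382 ± 118 in s2, then 921 ± 307 in s3 and 1730 ± 356 in s4 libraries (SD, n = 8 each), with the larger increases after s2.

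The second largest contrast of the list was -0.70 in *Aqcoe1G045400*, with means of 6.66, 5.70 and 12.7 TPM at s1, s2 and s3 (edgeR adjusted p 1). The 10 genes of other chaperones and heat shock factors had a median of -0.06, with 5 genes on each side. Contrasts were 0.86 for *Aqcoe7G179300*, annotated as heat shock factor *HSFC1*, and 0.70 for *Aqcoe2G285400*, a DnaJ-domain chaperone, and 0 of the 10 were called or had an unadjusted p under 0.05.

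*Aqcoe7G088100* was abundant, and it was the only gene called below the midpoint. Its TPM ran from 195 through a median of 235 to 280 at s1, from 141 through 166 to 204 at s2, and from 194 through 276 to 342 at s3. At s2, 7 of 8 libraries lay below every library of s1 and s3, and replicate 7 at 204 lay within both ranges. The level at s4 was 217 ± 45.9 (SD, n = 8).

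For *Aqcoe7G088100* the fitted level fell by 0.49 from s1 to s2 (edgeR adjusted p 0.03) and rose by 0.71 from s2 to s3 (edgeR adjusted p 0.0012). Against the midpoint the contrast was -0.60 (SE 0.10, 95% interval -0.81 to -0.39, edgeR adjusted p 0.023), a level 1.52-fold lower. It was called in 10 of 10 alternatives and in 18 of 24 analyses that left out 1 library, and was lost without s2 replicate 1, 2, 3, 4, 5 or 8 (adjusted p 0.051 to 0.13). No contrast of the 3 called genes changed sign in these analyses.

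The loci numbered on either side of *Aqcoe7G088100* were looked at after its values had been seen. *Aqcoe7G088200* had means of 19 ± 3.74, 11.9 ± 2.58 and 19.4 ± 5.83 TPM at s1, s2 and s3 (SD, n = 8 each) and a contrast of -0.69 (edgeR adjusted p 0.71). *Aqcoe7G088000* had 21.9 ± 3.67, 21.5 ± 3.85 and 53.9 ± 18.2 TPM, a step up after s2 rather than a low point, and a contrast of -0.67 (edgeR adjusted p 0.71). Reads that match more than 1 transcript are divided between them by estimate, and whether these loci resemble each other in sequence was not tested.

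**Figure D2:**
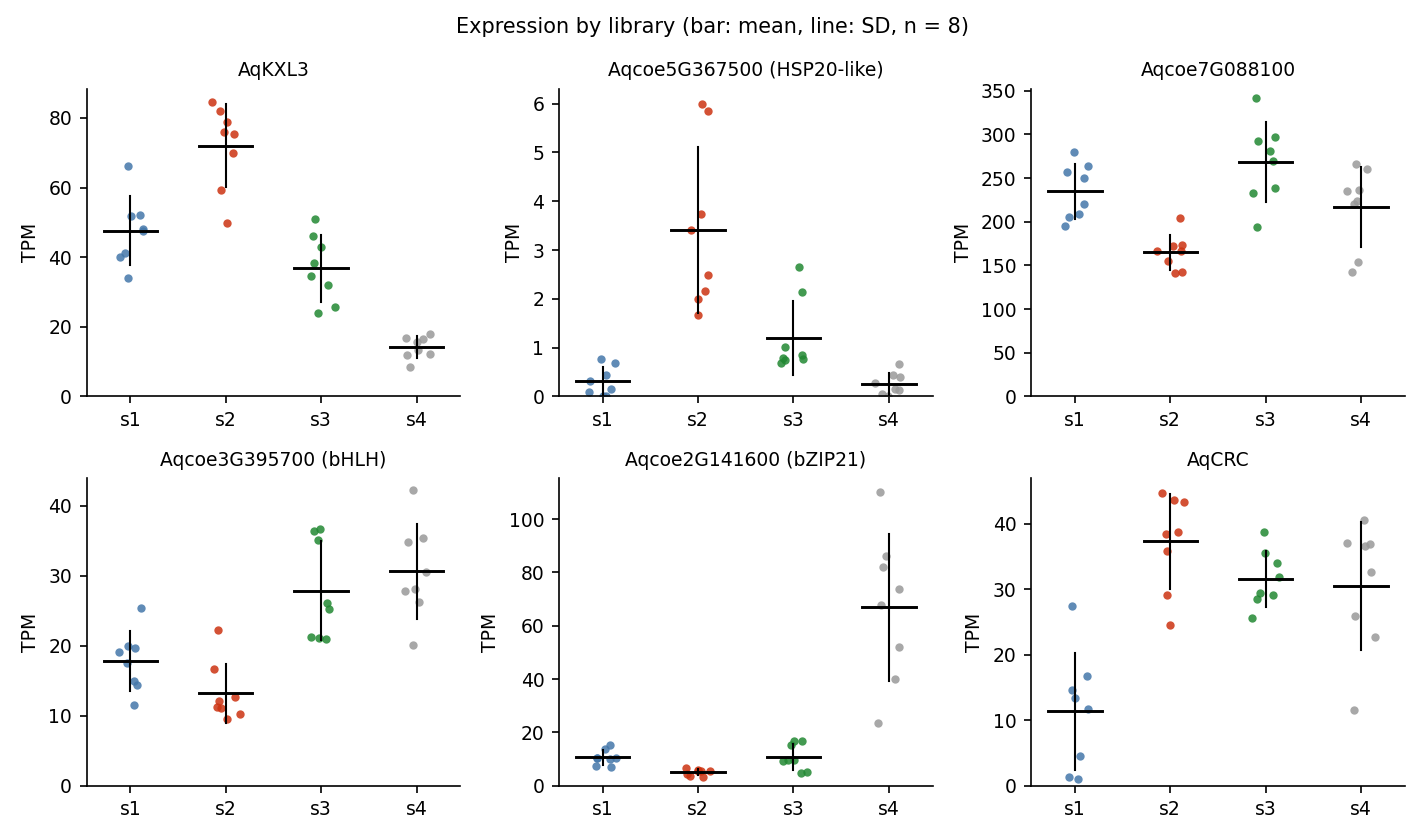
TPM of 6 genes in each of the 32 libraries, by stage, with the mean (bar) and SD (line) of 8 libraries. *AqKXL3* and *Aqcoe5G367500* were highest at s2 and *Aqcoe7G088100* lowest, while *Aqcoe3G395700*, *Aqcoe2G141600* and *AqCRC*, which were not called by edgeR, show a low point at s2, a low point before a rise at s4, and a rise into s2.

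The annotated gene next outside the threshold was *Aqcoe3G395700*, a basic helix-loop-helix transcription factor gene. It ran from 11.6 through a median of 18.3 to 25.4 TPM at s1, from 9.60 through 11.7 to 22.2 at s2 and from 21 through 25.7 to 36.7 at s3. At s2, 7 of 8 libraries lay below every s3 library and 4 below every s1 library. Its contrast was -0.74 (SE 0.15, edgeR adjusted p 0.13). DESeq2 (adjusted p 0.0032), limma on log2 CPM (adjusted p 0.049) and edgeR with the residual component as a covariate (adjusted p 0.049) called it. So did edgeR without s2 replicate 6, the library at 22.2 (contrast -0.88, adjusted p 0.02).

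Among genes that DESeq2 called below the midpoint and edgeR did not, *Aqcoe2G141600* and *Aqcoe5G448600* were singled out after their values had been seen. *Aqcoe2G141600* is annotated as bZIP21, which in *A. thaliana* is TGA9, a factor needed with TGA10 for anther development. Its TPM ran from 6.91 through a median of 10.5 to 15.3 at s1, from 3.20 through 5.57 to 6.63 at s2, from 4.57 through 9.49 to 16.9 at s3, and from 23.5 through 70.8 to 110 at s4. All 8 libraries of s2 lay below every library of s1, and 3 below every library of s3.

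The contrast of *Aqcoe2G141600* was -1.06 (SE 0.23, 95% interval -1.53 to -0.60, edgeR adjusted p 0.29 and DESeq2 adjusted p 0.0082). It fell by 1.03 into s2 (edgeR adjusted p 0.045) and rose by 1.10 out of it (edgeR adjusted p 0.043). The pair of calls was made in 7 of 10 alternatives and in 4 of the 24 analyses that left out 1 library. *Aqcoe5G448600*, of the zinc-binding alcohol dehydrogenase family, had means of 2.26 ± 0.651, 1.03 ± 0.30 and 1.90 ± 0.728 TPM at s1, s2 and s3 (SD, n = 8 each) and a contrast of -1.01 (SE 0.21, edgeR adjusted p 0.19 and DESeq2 adjusted p 0.0082).

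For most genes the 95% interval kept the departure under 1 on the log2 scale. That bound is wider than the called contrasts of *AqKXL3* (0.79) and *Aqcoe7G088100* (-0.60), so that departures of their size are not excluded by it. Over all 20477 genes the median contrast was 0.01 and the median size of the contrast 0.0716 on the log2 scale, with a median SE of 0.148. The 95% interval lay wholly within 1 of the midpoint in 18226 genes (89%) and within 0.5 in 13178 (64.4%). The bound was narrower for genes with more reads. Of 10136 genes at a mean of 10 to 100 CPM, 98.5% had the interval within 1 and 85.9% within 0.5, and of 5833 genes at 1 to 10 CPM 88.5% and 42.1%. Of 2258 genes under 1 CPM, 38.4% and 1.77% did, so that in most of them the interval left room for a departure of 1 or more.

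**Figure D3:**
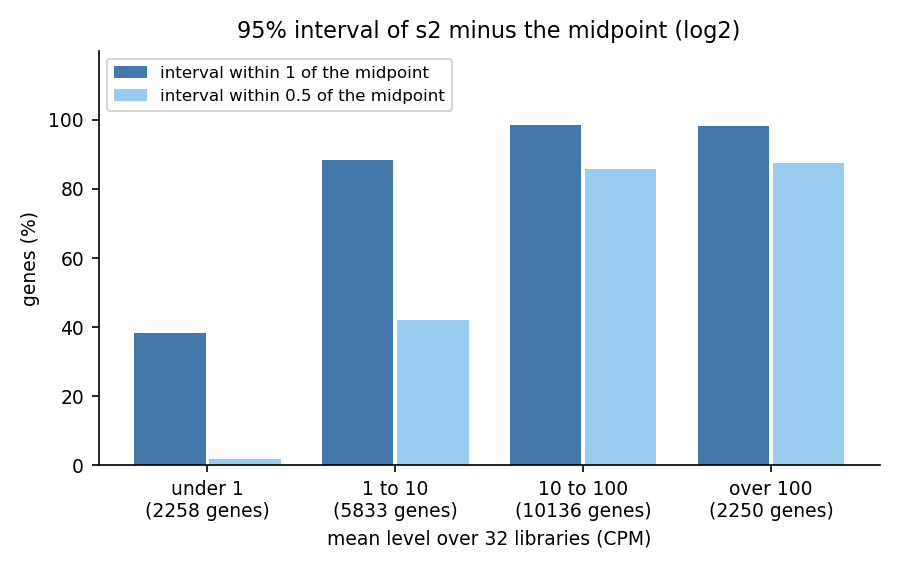
Share of genes whose 95% interval for s2 minus the midpoint lies within 1 (dark bars) or 0.5 (light bars) on the log2 scale, in 4 classes of mean CPM over the 32 libraries. The shares within 1 are 38.4%, 88.5%, 98.5% and 98.3% from the lowest class to the highest.

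Taken from the fitted levels alone, 5662 genes (27.7%) rose in both steps, 4946 (24.2%) fell in both, 5322 (26%) were highest at s2 and 4547 (22.2%) lowest at s2. These counts sort the signs of fitted steps, with no test.

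Where s2 lay along the way was read from the 769 genes (3.76%) that differed between s1 and s3 with an adjusted p under 0.05 in edgeR and a log2 change of at least 1, a choice in which s2 had no part. The position of s2 was its distance from s1 divided by the distance from s1 to s3, so that 0 is s1, 0.5 the midpoint and 1 is s3. On log2 levels the median position was 0.555, with quartiles of 0.421 and 0.684 and a range from -0.506 to 1.75. The median SE of a single gene's position was 0.186. In 741 of the 769 genes (96.4%) the fitted level of s2 lay between the other stages, in 16 beyond s1 and in 12 beyond s3.

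The 645 genes that were higher at s3 had a median position of 0.563, with 63.4% past the midpoint, and the 124 that were lower at s3 had 0.495, with 50% past it. The side of the midpoint depended on the scale. On linear normalized CPM, an alternative chosen after the data had been seen, the median was 0.428 over all 769 genes, 0.389 for the genes higher at s3 and 0.645 for those lower at s3, and 38.2%, 30.9% and 76.6% lay past the midpoint. In 86 of the 769 genes (11.2%) the unadjusted p against the midpoint was under 0.05, with 57 nearer to s3 and 29 nearer to s1, and 1 of them, *Aqcoe5G367500*, was called.

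The libraries of s2 were spread widely along this axis. When each library was projected on the line between the s1 and s3 means of the 769 genes, in log2 CPM, the s2 libraries had a mean position of 0.498 ± 0.154 (SD, n = 8), with replicate 1 lowest at 0.259 and replicate 4 highest at 0.744. The s1 libraries lay between -0.221 and 0.2 and the s3 libraries between 0.805 and 1.17. The s1 and s3 libraries define the line, so that their means are 0 and 1 by construction. The ranges did not overlap, and 5 of the 8 s2 libraries were past 0.5. The called genes were set beside these positions after the values had been seen. The 2 libraries nearest s1, replicates 1 (0.259) and 5 (0.342), had the highest TPM of *Aqcoe5G367500*, at 6.00 and 5.85. Next came replicates 3 (0.596) at 3.74 and 4 (0.744) at 3.42, while replicate 8 (0.417) had 2.16. *AqKXL3* was lowest in replicate 4, the library nearest s3, and next lowest, at 59.3, in replicate 5. No order along the axis is read from these values, and *Aqcoe5G367500* is itself 1 of the 769 genes.

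**Figure D4:**
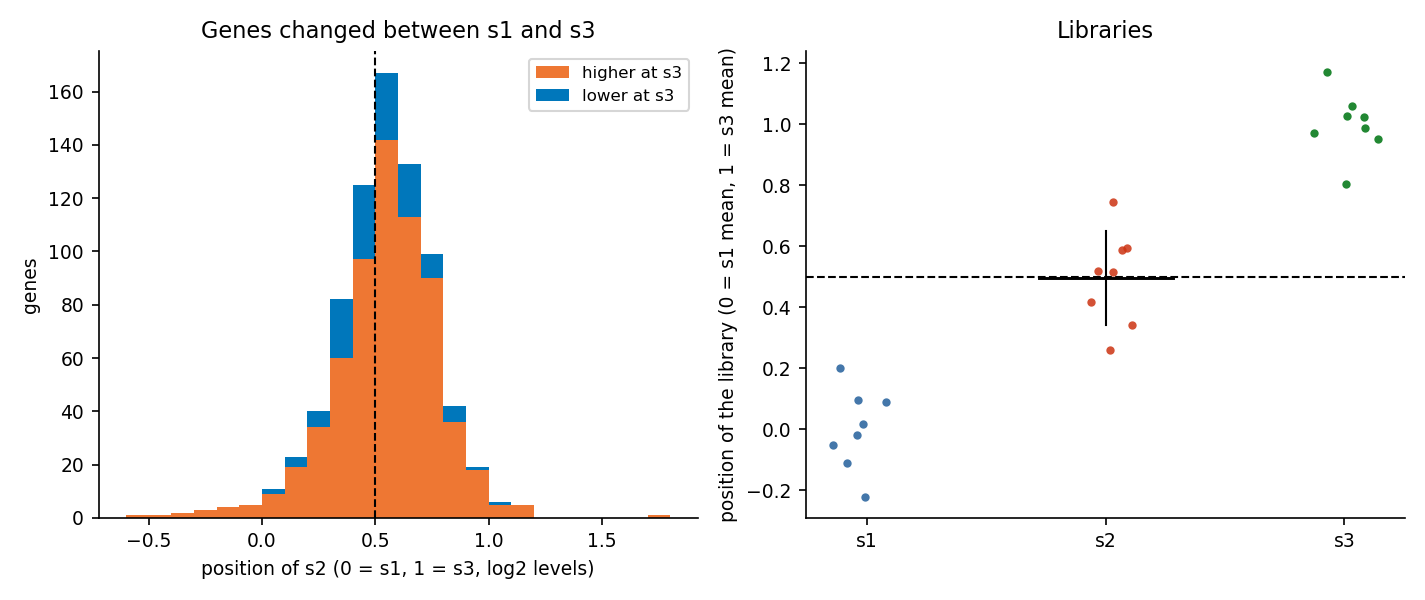
Left, the number of genes by the position of s2 between s1 (0) and s3 (1), for the 769 genes changed between s1 and s3, on log2 levels. Right, the position of each library of s1, s2 and s3 on the same axis, with the mean (bar) and SD (line) of the 8 s2 libraries. The s2 libraries run from 0.259 to 0.744, and the s1 and s3 libraries lie outside that range.

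All 25 genes of the stage 1 module hubs, a list that the study built from co-expression in these libraries, had fitted levels that fell in both steps, and their contrasts ran from -0.24 to 0.19 with a median of 0.01 (0.01 over all genes tested). The list was chosen on these samples for its association with s1, so that its fall is not independent evidence. Outside it, *Aqcoe6G092100* (*AqAIL6*), an *AINTEGUMENTA*-like gene, had a contrast of -0.37 (95% interval -0.69 to -0.05, edgeR adjusted p 1), and the WUS homolog *Aqcoe2G057900* had -0.25 (95% interval -0.89 to 0.39). Within the stage 1 hubs, the 2 largest contrasts were -0.24 for *AqSAP*, homolog of *STERILE APETALA*, and -0.21 for *AqCUC3*, homolog of *CUP SHAPED COTYLEDON3* (edgeR adjusted p 1 for both).

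*AqPAN* (*Aqcoe3G399500*), homolog of the bZIP gene *PERIANTHIA* that acts on floral organ number, ran from 41.1 to 67.1 TPM at s1 (median 51.4), from 13.6 to 32.4 at s2 (median 22.5) and from 8.44 to 13.7 at s3 (median 12.5). All 8 libraries of s2 lay below every s1 library and 7 above every s3 library. The gene fell by 1.25 and then by 0.86 (edgeR adjusted p 4.1e-05 and 0.0026), and the contrast was -0.19 (95% interval -0.47 to 0.08). For *AqUFO1*, homolog of the F-box gene *UNUSUAL FLORAL ORGANS*, the contrast was 0.07 (95% interval -0.30 to 0.44) with steps of -0.98 and -1.13.

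*AqAHP6* (*Aqcoe7G234000*) matches a pseudo-phosphotransfer protein that dampens cytokinin signalling in *A. thaliana*. It ran from 5.6 to 12.2 TPM at s1 (median 9.01), from 2.52 to 3.78 at s2 (median 2.98) and from 0.49 to 1.31 at s3 (median 0.917), with no overlap between any of the 3 stages. It fell by 1.61 and by 1.78, and its contrast was 0.09 (SE 0.20, 95% interval -0.33 to 0.50). The protein kinase gene *Aqcoe7G055500* had the highest contrast among the genes that the study names with an identifier, 0.39 (edgeR adjusted p 1), with means of 22.3, 14.3 and 5.52 TPM at s1, s2 and s3.

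Of those 31 genes all were tested, 0 were called, and the median contrast was -0.01. An unadjusted p under 0.05 was reached by 1 above and 2 below, beside 1.6% and 1.16% of all genes tested. In 24 of them fitted levels fell in both steps, in 3 they rose, and the lowest contrast was -0.62 in *AqEXS* (*Aqcoe2G426800*). *AqEXS*, homolog of the receptor kinase gene *EXCESS MICROSPOROCYTES* of anther development, had means of 4.94 ± 1.21, 4.37 ± 0.67, 9.37 ± 2.63 and 31 ± 12.3 TPM from s1 to s4 (SD, n = 8 each).

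*AqEXS* belongs to the 8 magenta module hubs, chosen by the study for their rise at s4, and in all 8 the level of s2 was below the midpoint. Their median contrast was -0.58 (0.01 over all genes tested), 0 were called, and 3 had an unadjusted p under 0.05 (1.16% of all genes tested). The list was chosen on these samples for its association with s4, so that its lean below the midpoint is not independent evidence. The largest contrast was -1.07 in *Aqcoe2G397800*, a dynamin-related gene, which ran from 2.42 to 5.10 TPM at s1 (median 3.86), from 2.03 to 4.47 at s2 (median 3.07) and from 4.16 to 20.9 at s3 (median 13.4). Its ranges at s1 and s2 overlapped almost fully, so that the contrast came from the step after s2 (1.94, edgeR adjusted p 0.00026). The gene was not called by edgeR (adjusted p 0.45) but was by DESeq2 (adjusted p 0.026) and with the residual component as a covariate (adjusted p 0.0064).

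*Aqcoe1G115900*, annotated as the HD-Zip gene *HB51*, had the same form. It ran from 2 to 4.69 TPM at s1 (median 2.71), from 2.27 to 6.23 at s2 (median 4.12) and from 6.21 to 35.8 at s3 (median 24.6), and 7 of the 8 s2 libraries lay below every s3 library. The contrast was -0.94 (SE 0.23, edgeR adjusted p 0.66). In the homeobox list of 13 genes, 1 was called, *AqKXL3*, beside 0.0147% of all genes tested. The median contrast was -0.05 (0.01 over all genes tested) and 9 fell in both fitted steps (24.2% of all genes tested). An unadjusted p under 0.05 was reached by 2 above and 1 below, beside 1.6% and 1.16%.

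Other genes changed mainly before s2. *AqCRC* (*Aqcoe3G065300*), homolog of the carpel gene *CRABS CLAW*, ran from 0.958 through a median of 12.6 to 27.5 TPM at s1, from 24.6 through 38.7 to 44.8 at s2 and from 25.6 through 30.6 to 38.8 at s3. At s2, 7 of 8 libraries were above every s1 library and 3 above every s3 library. It rose by 1.72 into s2 (edgeR adjusted p 0.016) and the next step was -0.22. The contrast, 0.97 (SE 0.32, 95% interval 0.32 to 1.62), did not pass (edgeR adjusted p 1; 0.40 to 1 over the alternatives). The other *YABBY* gene tested, *Aqcoe7G078300*, annotated as *YAB3*, had a contrast of 0.10.

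All 4 stomatal genes lay above the midpoint, and 0 were called. An unadjusted p under 0.05 was reached by 3, beside 1.6% of all genes tested, and the median contrast was 0.56, beside 0.01. *AqMUTE*, homolog of the gene that commits a cell to form guard cells, ran from 0.387 to 4.18 TPM at s1 (median 1.90), from 3.81 to 9.20 at s2 (median 5.27) and from 3.95 to 10 at s3 (median 7.11), and its contrast was 0.60 (95% interval 0.06 to 1.14). *AqEPF1*, homolog of a secreted peptide that spaces stomata, had medians of 1.42, 4.23 and 5 TPM at s1, s2 and s3 and a contrast of 0.52 (95% interval 0.03 to 1.01). The largest contrast was 1.24 in *Aqcoe2G399200*, which the study annotates as *FMA*. It was listed at 0 TPM in 4 libraries of s1 and 1 of s2, and its contrast ran from 0.25 to 1.32 over the alternatives.

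The summed level of the 4 stomatal genes was 8.82 ± 3.77 TPM at s1, 20.5 ± 5.05 at s2 and 29.1 ± 8.78 at s3 (SD, n = 8 each). Sepals left on the bud may carry green tissue and stomata, which was not observed here. The summed level of 11 photosynthesis genes moved in the same order, at 695 ± 182, 956 ± 155 and 1330 ± 227 TPM. That order was not particular to them. The 17 vascular genes summed to means of 49.6, 62.5 and 74.2 TPM, and the 10 cell division genes to 230, 309 and 388. The part of remaining sepal tissue in these values was not tested. The photosynthesis genes themselves stayed near the midpoint, with contrasts from -0.09 to 0.25 and a median of 0.01. The 2 largest were 0.25 for *Aqcoe3G242500*, a light-harvesting-like protein gene, and 0.23 for *Aqcoe2G161800*, a protochlorophyllide oxidoreductase gene.

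**Figure D5:**
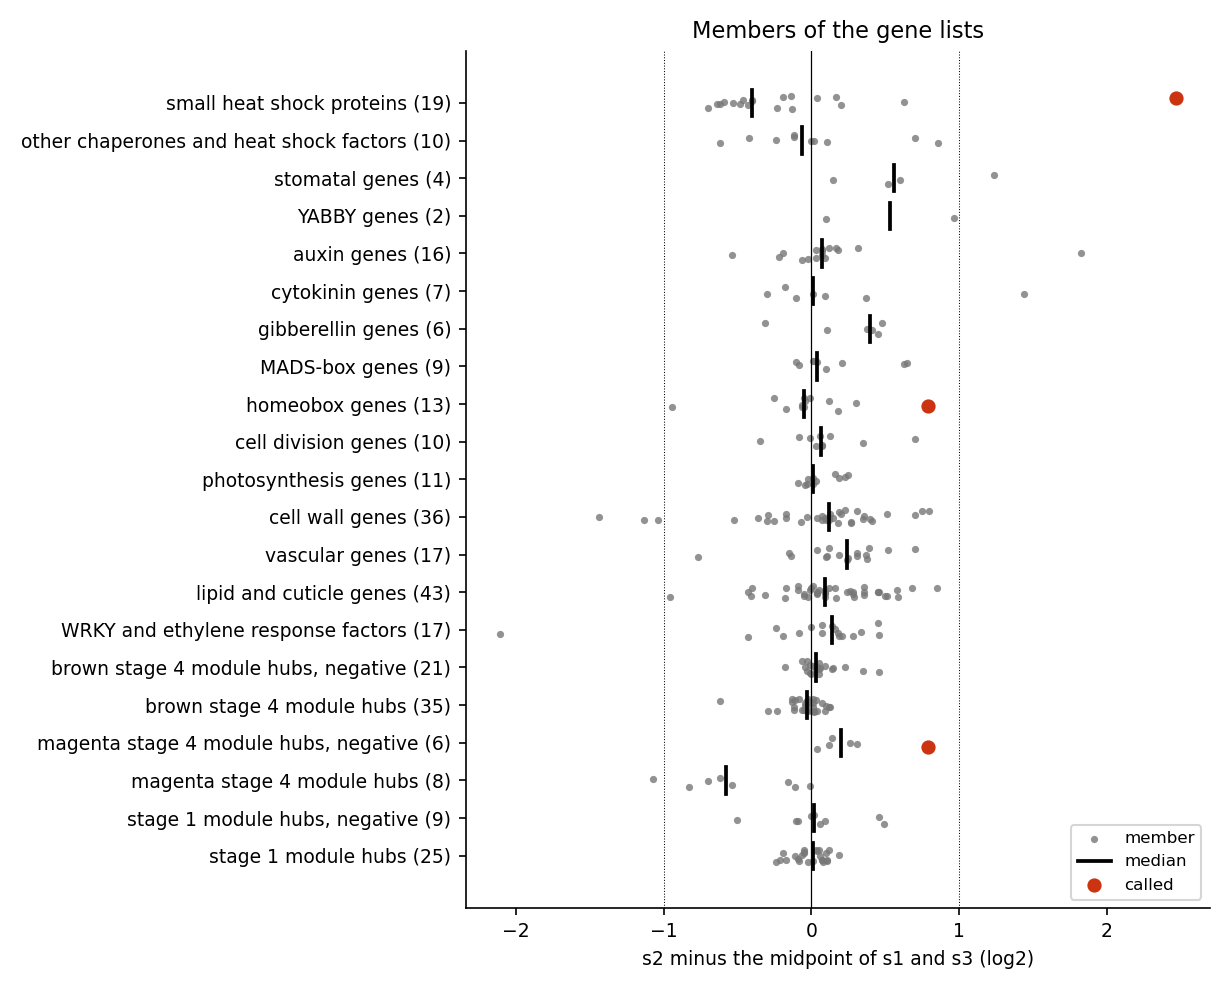
Contrast of s2 against the midpoint of s1 and s3 (log2) for each tested member of 21 gene lists, with the number of members in parentheses, the median as a black bar and called genes in red. Most members lie within 1 of 0, the magenta module hubs and small heat shock proteins lean below and the stomatal genes above.

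Among hormone genes, the 16 auxin genes had a median contrast of 0.07, with 0 called and 1 above at an unadjusted p under 0.05 (1.6% of all genes tested). *Aqcoe7G236700*, annotated as the auxin response repressor *IAA11*, had a contrast of 1.83 (SE 0.79, edgeR adjusted p 1) from means of 0.0595, 0.856 and 0.844 TPM at s1, s2 and s3, but 2 of its s2 libraries were listed at 0 and replicate 7 reached 3.56. Its contrast fell to 0.31 in the alternative that moved it most. Next came -0.54 for the SAUR-like gene *Aqcoe7G001900*.

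The 7 cytokinin genes had a median of 0.01 and 0 calls, with 1 above at an unadjusted p under 0.05 (1.6% of all genes tested). *Aqcoe5G182600*, annotated as the cytokinin oxidase *CKX5*, which breaks cytokinin down, ran from 0 to 0.562 TPM at s1 (median 0.246), from 0.46 to 6.91 at s2 (median 2.01) and from 1.10 to 4.85 at s3 (median 3.22). Its contrast was 1.44 (SE 0.47, edgeR adjusted p 1), with 7 of 8 s2 libraries above every s1 library, and it dropped to 0.96 in the analysis that left out 1 library and moved it most. The cytokinin response factor gene *Aqcoe5G066800* had 0.37. Of the 6 gibberellin genes, 5 lay above the midpoint, with a median of 0.40 (0.01 over all genes tested). There were 0 calls and 2 above at an unadjusted p under 0.05 (1.6% of all genes tested). The largest contrasts were 0.48 for the gibberellin-regulated gene *Aqcoe6G297000* and 0.45 for *Aqcoe2G173400*, annotated as the biosynthesis gene *GA3OX1*.

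Of the 9 MADS-box genes, 0 were called and the median was 0.04. *Aqcoe1G209900*, annotated as *AGL5*, which in *A. thaliana* acts in fruit, had means of 5.35 ± 3.15, 9.36 ± 2.96, 6.91 ± 0.972 and 19.8 ± 10.7 TPM from s1 to s4 (SD, n = 8 each) and a contrast of 0.63 (95% interval 0.09 to 1.17, edgeR adjusted p 1). The contrast of *Aqcoe6G007500*, annotated as *AGL12*, was 0.65. Among the 10 cell division genes the median was 0.07, with 0.70 for *Aqcoe5G413600* and -0.35 for *Aqcoe1G365100*, both P-type cyclins, and 0 calls.

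Of 36 cell wall genes, 30 had fitted levels that increased in both steps, the median contrast was 0.12 and 0 were called, with 2 above and 1 below at an unadjusted p under 0.05 (1.6% and 1.16% of all genes tested). The largest contrasts were -1.44 for the xyloglucan hydrolase gene *Aqcoe7G163800* and -1.13 for the pectin lyase-like gene *Aqcoe3G151000*. The 17 vascular genes had a median of 0.24 with 14 above the midpoint, 0 calls and 0 at an unadjusted p under 0.05. Their largest contrasts were -0.77 for *Aqcoe1G492000* (*IRX9*, of xylan synthesis) and 0.70 for *Aqcoe2G224800*, a laccase gene.

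The 43 lipid and cuticle genes had a median of 0.09, with 0 called and 5 above at an unadjusted p under 0.05 (1.6% of all genes tested). *Aqcoe6G007700*, a GDSL-type lipase gene, had steps of 3.48 and 1.78 and a contrast of 0.85 (edgeR adjusted p 1), and the lipid-transfer protein gene *Aqcoe7G076700* had -0.96. Among the 17 WRKY and ethylene response factor genes, with a median of 0.14 and 0 calls, the lowest contrast was -2.11 (SE 0.92, edgeR adjusted p 1) for *Aqcoe5G080000*, annotated as *PUCHI*, a gene whose mean TPM was 0.687, 0.0729 and 0.147 at s1, s2 and s3. The next was 0.46 for *Aqcoe5G327100*, also an ethylene response factor.

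Of the remaining hub lists of the study, also chosen on these samples, the 35 brown hubs had a median of -0.03 and 34 rose in both steps, and the 21 brown hubs of negative sign had 0.03 and 18 fell. The largest contrasts were -0.62 for *Aqcoe1G130700*, a heat shock protein 90 gene, and -0.29 for *Aqcoe2G303600* in the first, and 0.46 for *Aqcoe7G174500* and 0.35 for *Aqcoe3G311800* in the second. The 9 stage 1 hubs of negative sign had a median of 0.02, with -0.50 for the flotillin gene *Aqcoe6G143000* and 0.49 for *Aqcoe3G288200*. In these lists 0 genes were called. The 6 magenta hubs of negative sign were all above the midpoint, with a median of 0.20 (0.01 over all genes tested). *AqKXL3* was the 1 called, beside 0.0147% of all genes tested, followed by 0.31 for *Aqcoe7G121400*. An unadjusted p under 0.05 was reached by 2 above, *AqKXL3* among them (1.6% of all genes tested).

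Over all lists together 310 genes were tested, with a median contrast of 0.04. Of these, 2 were called, *AqKXL3* and *Aqcoe5G367500*, beside 0.0147% of all genes tested. An unadjusted p under 0.05 was reached by 19 above the midpoint (6.13%, beside 1.6% of all genes tested) and by 14 below (4.52%, beside 1.16%). Most members were picked by the study because they differed between pairs of these stages, so that these shares are not independent evidence about the lists.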

How the data were processed

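RNA was sequenced from 32 libraries, 8 per stage, made with SMART-Seq v4 and Nextera XT and read as paired ends. Per the labels and the study's methods, the authors trimmed reads with Trim Galore 0.6.5 and quantified them with kallisto 0.46.1 against the transcripts of *Aquilegia coerulea* 'Goldsmith' v3.1. The deposited files hold, for each transcript, an estimated count and a TPM value, normalized by the authors for transcript length and library total, beside the length and effective length. Estimated counts were rounded to whole numbers before testing, and 1 transcript stands for 1 gene.

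A gene was kept where any library passed 1 CPM. With edgeR 4.0.16 (R 4.3.3), TMM factors and 1 quasi-likelihood fit over the 4 stages gave s2 minus the mean of s1 and s3 on the log2 scale, two-sided, with Benjamini-Hochberg adjustment over all genes. TPM was used only to show levels. Libraries of a stage were the replicates, and p-values measure the spread between them. The tests treat libraries as independent, although some share plants, since the labels do not say which. Alternatives were DESeq2 1.42.0, limma 3.58.1 (voom, and trend on log2 CPM), counts scaled from TPM by length, RLE factors, 2 other filters, only the 24 libraries of s1, s2 and s3, the replicate number as a block, a residual component as a covariate, and leaving out 1 of the 24 libraries at a time. The fits were tested on simulated data.

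Named genes were the called genes, the annotated gene nearest to the threshold on either side, and up to 4 called genes in each list. To these were added, in most lists, the 2 contrasts of largest size, also where a member was called. The genes the study names with an identifier were given as counts, some of them with values. Meristem markers were named as well, and further list members, such as the other KNOX genes and *AqEPF1*, fell outside these rules. Where the text says so, genes were chosen after their values had been seen. Names come from the study's supplementary tables, which also gave the genes of the lists. The members and lists were chosen with earlier results of these data known.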

Additional observations from a re-analysis of the deposited data

Results flagged for a closer look

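In 5 of the groups of 8 libraries examined, which is 4.42% of them, 1 library stood farther from the others than Dixon's 95% limit for 8 values allows, and chance alone gives about 1 in 20, so that the number flagged is near the share chance gives. *AqEPF1* reached 3.70 TPM in s1 replicate 5, where the next library had 2.06. *CKX5* (*Aqcoe5G182600*) reached 6.91 TPM in s2 replicate 4, where the next had 2.82, and without that library its contrast was 0.96 in place of 1.44. *IAA11* (*Aqcoe7G236700*) reached 8.18 TPM in s4 replicate 4, where the next had 0.651. *AGL5* (*Aqcoe1G209900*) reached 12.3 TPM in s1 replicate 7, where the next had 6.28. The summed level of the photosynthesis genes reached 1840 TPM in s3 replicate 4, where the next library had 1430.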

How the results depend on the processing

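Counts of genes beyond both neighbours stayed at 0 in every alternative run, and no result reversed its sign. Of the counts off the midpoint, those above became 1 with the replicate number as a block, and lay between 0 and 2 when 1 library was left out. Those below became 7 with DESeq2, 2 with limma trend and 4 with the residual component, and 0 to 2 when 1 library was left out. Contrasts of at least 1 above numbered 0 with the block and 0 to 1 without 1 library, and those of at least 1 below 3 with DESeq2 and 1 with the residual component. Genes above both neighbours in each pairwise test numbered 0 with the block and 0 to 1 without 1 library, and those below both 1 with limma-voom, 1 with limma trend, 4 with the residual component and 0 to 2 without 1 library. For s3 against the midpoint of s2 and s4 the count was 22 with DESeq2, 314 with the residual component and 3 to 8 without 1 library. The median position lay between 0.527 and 0.558 over the alternatives on log2 levels, between 0.52 and 0.577 without 1 library, and at 0.428 on linear CPM. The causes were not tested. The labels do not say whether replicate numbers pair the samples. Deviations from the stage mean correlated between same-numbered libraries at a mean of 0.0496 (s1 and s2), 0.143 (s2 and s3) and 0.0497 (s1 and s3). Of 8 pairs, 2, 4 and 3 were over 0.1. The means between different numbers were -0.00694, -0.0202 and -0.00695. The s2 and s3 pairs ran from -0.405 to 0.622, a range too wide for 8 pairs to settle pairing.

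The biological coefficient of variation was 31.2%, and genes under 1 CPM had a median SE of 0.415.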
